A study of Mus musculus with 2 samples.

Results

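Open chromatin at the starts of long noncoding RNA genes was described in the mouse limb at 11.5 days of embryonic development. Peaks were taken as members by position alone. A shared peak, formed by merging peaks of both libraries that overlapped by at least 1 bp on chromosomes 1 to 19, was a member when its centre fell at most 1 kb from a transcript start of a lincRNA or antisense gene and over 5 kb from every protein-coding start. This gave 1871 members of 115658 shared peaks, 1410 of them nearest to a lincRNA start and 461 nearest to an antisense start. The annotation was GENCODE M21 on mm10, in which lincRNA denotes a noncoding gene lying between protein-coding genes and antisense a noncoding gene transcribed across a protein-coding gene from the opposite strand.

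The data were 2 DNase-seq libraries, biological replicates of 1 group: limb tissue of strain B6NCrl, pooled from male and female embryos described as healthy, with no treatment or genetic change named. Fore- and hindlimb were not separated in the labels. Both libraries carry the same donor label with separate tissue samples, so the spread between them may be partly technical. The assay maps open chromatin by sequencing the ends that DNase I leaves where it reaches DNA. The limb bud at this age is mesenchyme under an ectodermal sheet, with vessels, blood and ingrowing muscle precursors and nerves, so a weak peak from few cells cannot be told apart from a weakly open site in all cells. With 1 group of 2 libraries no test between conditions was possible, and shares are given with Wilson 95% intervals that cover counting error over regions only. Neighbouring peaks are not independent. No RNA was measured in these files, so a peak at a start says nothing of whether the transcript was made.

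Long noncoding RNAs are transcribed by RNA polymerase II, and most are capped, spliced and polyadenylated like messenger RNAs. Their promoters as a class are known to hold fewer CpG islands and to be used in fewer cell types than promoters of protein-coding genes, and some annotated starts lie in enhancers that are themselves transcribed. Others are abundant structural RNAs of the nucleus, precursors of microRNAs and small nucleolar RNAs, or imprinted transcripts that act on neighbouring genes.

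The 4 sequences below, from the GRCm38.p6 genome (mm10) of NCBI RefSeq and written 5′ to 3′ on the strand of the noncoding gene, show the kinds of member that the results turn on. Each is the central 150 bp of a merged peak. The first is the highest ranking member, 6720427I07Rik (chr13:48546626-48546775, minus strand, between genes), with every CpG in capitals. The second is the peak over the first start of Dnm3os (chr1:162217536-162217685, plus strand, inside Dnm3, which it crosses in the opposite direction), the highest ranking member poor in CpG, also with CpGs in capitals.
6720427I07Rik: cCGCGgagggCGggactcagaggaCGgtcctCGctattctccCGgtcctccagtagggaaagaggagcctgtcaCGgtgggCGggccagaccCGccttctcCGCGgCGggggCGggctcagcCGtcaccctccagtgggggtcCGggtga
Dnm3os: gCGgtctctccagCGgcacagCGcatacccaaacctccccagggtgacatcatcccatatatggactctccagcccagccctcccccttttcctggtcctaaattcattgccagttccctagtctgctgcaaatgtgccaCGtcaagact
The first holds 15 CpGs and the second 4, and in the second the start lies at base 88. The next is the highest ranking member with a CTCF consensus, at 0610025J13Rik (chr4:98322346-98322495, plus strand, outside protein-coding genes), with the match in capitals. The last is the highest ranking member whose nearest protein-coding gene is in a list of limb regulators, at Gm47061 (chr13:40722826-40722975, plus strand, inside Tfap2a), with a GC box, the word GGGCGG read on the opposite strand, in capitals.
0610025J13Rik: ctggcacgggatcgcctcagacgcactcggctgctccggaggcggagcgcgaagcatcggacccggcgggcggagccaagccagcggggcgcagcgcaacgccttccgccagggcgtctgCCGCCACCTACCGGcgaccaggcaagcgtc
Gm47061: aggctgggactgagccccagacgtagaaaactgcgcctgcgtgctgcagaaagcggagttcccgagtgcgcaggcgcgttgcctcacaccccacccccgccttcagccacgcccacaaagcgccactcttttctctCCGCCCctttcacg
Both lie in GC-rich sequence, and the CTCF match covers bases 121 to 134 of its window.

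A further pair was chosen after values had been seen, because both hold the cyclic AMP response element, the palindrome TGACGTCA bound by CREB and ATF factors, close upstream of the start. At 1810044D09Rik (chr6:91440856-91441005, plus strand, between genes) the start lies at base 132. At Meg3 (chr12:109540846-109540995, plus strand, between genes) it lies just beyond the window. The element is in capitals.
1810044D09Rik: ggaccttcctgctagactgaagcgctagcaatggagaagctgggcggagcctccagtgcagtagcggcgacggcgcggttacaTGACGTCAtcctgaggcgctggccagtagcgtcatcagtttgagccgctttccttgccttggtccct
Meg3: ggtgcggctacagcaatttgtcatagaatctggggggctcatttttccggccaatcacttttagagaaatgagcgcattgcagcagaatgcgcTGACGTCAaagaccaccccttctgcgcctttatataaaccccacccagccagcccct
The element begins at base 84 in the first and at base 94 in the second. The Meg3 window also holds a TATA box and an NFY box.

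Most noncoding genes had no peak at a start. Of 6219 lincRNA and antisense genes with a start over 5 kb from every protein-coding start, 1362 (21.9%, Wilson 95% interval 20.9 to 22.9) had a shared peak at such a start. Each library taken alone gave 26.3% and 25.7%, or 26.0% ± 0.364 (SD, n = 2), the alone values being higher because a shared peak needs both libraries. Among 20722 protein-coding genes the background was 68.1%, counted over all their starts. No peak of either library lay at a start of 4377 noncoding genes (70.4%), 239 had a peak in replicate 1 only and 207 in replicate 2 only. Another 34 had a peak in each library but no shared peak that met the position rule.

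The share was much alike for the gene types, at 22.5% of lincRNA genes (interval 21.3 to 23.7) and 20.3% of antisense genes (18.5 to 22.4), whose intervals overlap. It went with how many transcripts were annotated: 19.1% of genes with 1 transcript, 29.4% of those with 2 to 4 and 51.1% of those with 5 or more (70 of 137 genes, interval 42.8 to 59.3). Genes with more transcripts offer more starts and so more windows, and the part of this was not tested. Among genes with a single start the share did not rise with the number of exons, at 51 of 255 genes with 1 exon, 20.4% of those with 2, 18.1% with 3 or 4 and 15.6% with 5 or more. Genes over 200 kb from a protein-coding start had a shared peak in 15.03% of cases (interval 13.1 to 17.2), below the 24.9% at 5 to 10 kb (21.6 to 28.6) and the 23.1% at 50 to 200 kb (21.3 to 24.9). Genes with other symbols than a Gm number, a RIKEN clone name or a common clone accession had a shared peak in 31.5% of cases (26.5 to 37.0). Gm-numbered genes had one in 20.1% (18.9 to 21.3). The group of other symbols still holds some sequence accessions, such as AU020206 and C79798.

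By nearest start the 1871 members belonged to 1343 genes, 938 of them with 1 member and 405 with several. The centre of 365 members (19.5%) lay inside a protein-coding gene on either strand, against 44.4% of distal peaks and 51.4% of all shared peaks. Distal peaks are here the 74135 shared peaks over 5 kb from every protein-coding start and over 1 kb from every lincRNA or antisense start, and protein-coding promoter peaks are the 26842 centred at most 1 kb from one.

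Members gathered just upstream of the annotated start. The centre of 365 members (19.5%, interval 17.8 to 21.4) fell in the 100 bp before it, while each 100 bp bin beyond 500 bp held 53 to 61 members upstream and 61 to 73 downstream. In the same upstream bin lay 31.5% of protein-coding promoter peaks. The start itself was covered by 472 members (25.2%, interval 23.3 to 27.2), and 1034 centres (55.3%) lay upstream of it. A concentration at the start was thus present, and a broad floor of members on both sides lay under it, as the plot of centre positions shows.

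**Figure D1:**
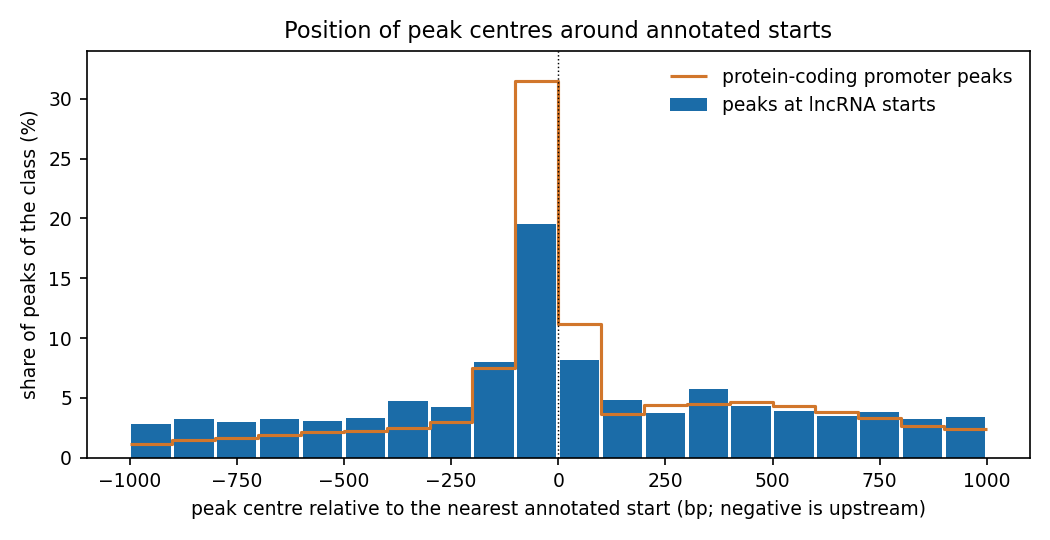
Share of peaks per 100 bp of distance between the peak centre and the nearest annotated start, negative upstream: bars for the 1871 peaks at lncRNA starts, line for the 26842 protein-coding promoter peaks. Both peak in the 100 bp upstream of the start, at 19.5% and 31.5%.

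Members close to the start were stronger and richer in CpG than those farther away. Of the 519 members centred within 100 bp, the median signal percentile was 71.6 in replicate 1 and 74.1 in replicate 2. This percentile is the rank of the deposited signal within the library's own peak list, used because the scaling of the signal is not given in the sources used here. For the 622 centred 501 to 1000 bp away it was 60.4 and 62.1, with the bins between at 64.7 to 66.7. The share meeting a CpG island criterion (GC of at least 50% and an observed/expected CpG ratio of at least 0.6 in the central 300 bp) fell from 23.7% (interval 20.2 to 27.5) to 9.00% (6.998 to 11.5). The CTCF consensus showed no steady course with distance, at 2.31% within 100 bp, 1.60% at 101 to 250 bp, 5.04% at 251 to 500 bp and 3.86% farther out.

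In signal the members lay between the other classes and near the average shared peak. Their median deposited signal was 57 in replicate 1 and 51 in replicate 2, against 77 and 76 for protein-coding promoter peaks and 52 and 42 for distal peaks. As a percentile the median was 64.7 and 66.7, or 65.7 ± 1.41 (SD, n = 2), with 81.5 and 85.2 for protein-coding promoter peaks, 58.3 and 55.4 for distal peaks, and 63.5 and 63.3 for all shared peaks. The order of the 3 classes was the same in both libraries. In the top 10% of signal of both libraries stood 223 members (11.9%, interval 10.5 to 13.5), where the background over all shared peaks was 12%, protein-coding promoter peaks gave 37.3% and distal peaks 3.69%. The members' share was thus at the background.

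**Figure D2:**
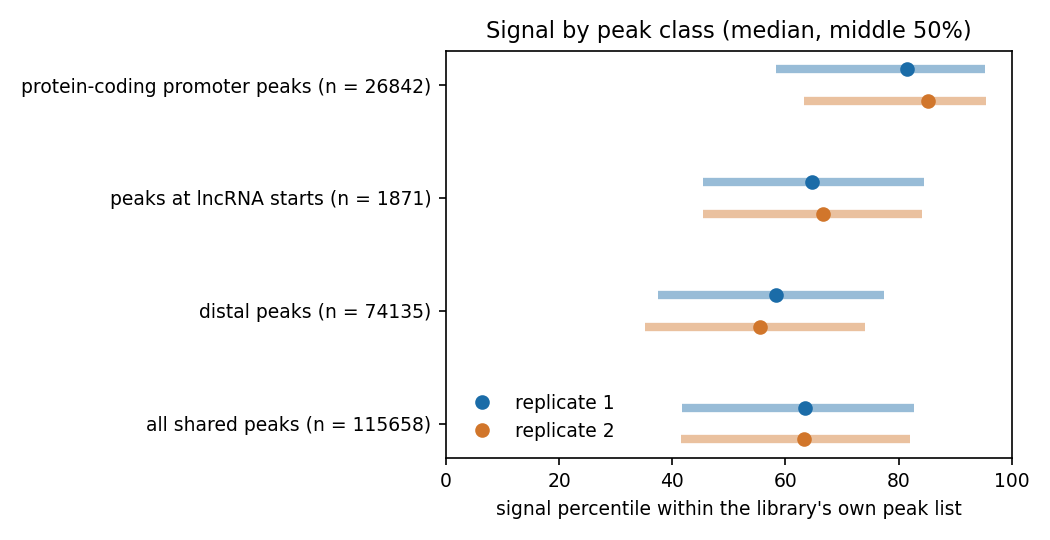
Median signal percentile (points) and middle 50% of peaks (bars) for 4 sets of shared peaks in replicate 1 and replicate 2. Members had medians of 64.7 and 66.7, below protein-coding promoter peaks and above distal peaks, and the bars of all sets overlap.

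The hotspots, wider regions of raised cutting called in each library, showed the same order. Around members their median width was 368 bp in replicate 1 and 440 bp in replicate 2, against 967 and 1192 bp around protein-coding promoter peaks and 293 and 315 bp around distal peaks. The deposited −log10 q of the hotspot stood at its ceiling of 100 in both libraries for 49.0% of members (interval 46.7 to 51.2), 75.2% of protein-coding promoter peaks and 39.7% of distal peaks. Over all shared peaks it did so for 48.6%, so the members' share was at the background.

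The libraries gave much the same ranking. Spearman's rho of the signal over the 1871 members was 0.921, with 0.957 for protein-coding promoter peaks and 0.885 for distal peaks, as descriptions across regions that share their library and differ in the range of their signal. The percentile differed by over 25 points in 79 members (4.22%, interval 3.40 to 5.23), where the background was 5.31%. It was higher in replicate 1 for 36 (1.92%, background 2.88%) and in replicate 2 for 43 (2.30%, background 2.43%). With replicate 1 higher, the farthest apart in percentile was Gm48500 (44.8 points), with signals of 50 in replicate 1 and 21 in replicate 2. Next were AC151289.1 with 63 and 28, and Gm36485 with 46 and 20. In the other direction stood Gm42952 with 24 and 39, Gm49714 with 28 and 39, and Gm47760 with 26 and 36. The difference at Gm42952, 47.0 points, was the largest of all. All 6 lie outside protein-coding genes, miss the CpG island criterion and hold no GC box. These traits are common among members: 19.5% lie inside such a gene, 16.1% meet the criterion and 15.7% hold the GC box. At Gm42952 repeats mask 72% of the window, and 2.35% of members are masked over at least 50% of it.

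Peaks at these starts that were called in 1 library only were weak. Replicate 1 had 2701 peaks that met the position rule and replicate 2 had 2668, of which 72.3% and 73.2% overlapped a peak of the other library. In 511 (18.9%) and 588 (22.0%) the other library had no region of any kind there, and their median percentile was 18.8 and 25.5, against 54.0 and 53.9 for all such peaks. The strongest, chosen after their values were seen, were at Gm28401 in replicate 1, with a signal of 68, and at Gm14424 in replicate 2, with 72.

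In base composition the members also lay between the classes. Their median GC content over the central 300 bp was 51.7%, against 61.7% in protein-coding promoter peaks and 47.3% in distal peaks. The median observed/expected CpG ratio was 0.353, against 0.712 and 0.238, and the median number of CpGs 7, against 20 and 4. The CpG island criterion was met by 301 members (16.1%, interval 14.5 to 17.8), 61.4% of protein-coding promoter peaks and 2.89% of distal peaks. Over all shared peaks it was met by 17.9%, so the members' share was near the background. A ratio under 0.4 was found in 1079 members (57.7%), 17.6% and 80.6%, and in 63.9% of all shared peaks. Soft-masked repeats covered at least 50% of the window in 44 members (2.35%), against 1.46% and 3.73%, and in 3.30% of all shared peaks.

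Signal rose with the CpG ratio in both libraries. In the 408 members with a ratio of up to 0.2 the median percentile was 56.9 in each library, and in the 140 with a ratio over 0.8 it was 86.2 in replicate 1 and 89.5 in replicate 2. The 3 bins between had medians of 60.4, 68.9 and 78.1 in replicate 1 and 60.9, 70.6 and 80.7 in replicate 2. Members meeting the island criterion stood at 81.5 and 87.1. The whole class of protein-coding promoter peaks, of which 61.4% meet it, stood at 81.5 and 85.2, and its island peaks were not taken apart. Of the island members 37.2% (112 of 301, interval 31.9 to 42.8) were in the top 10% of both libraries. Of the members with a ratio under 0.4, 5.38% were (58 of 1079, interval 4.18 to 6.89). The medians of these CpG-poor members were 59.7 and 59.6, close to distal peaks of any CpG ratio. The start was covered by 35.2% of the island members and 22.9% of the CpG-poor ones.

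**Figure D3:**
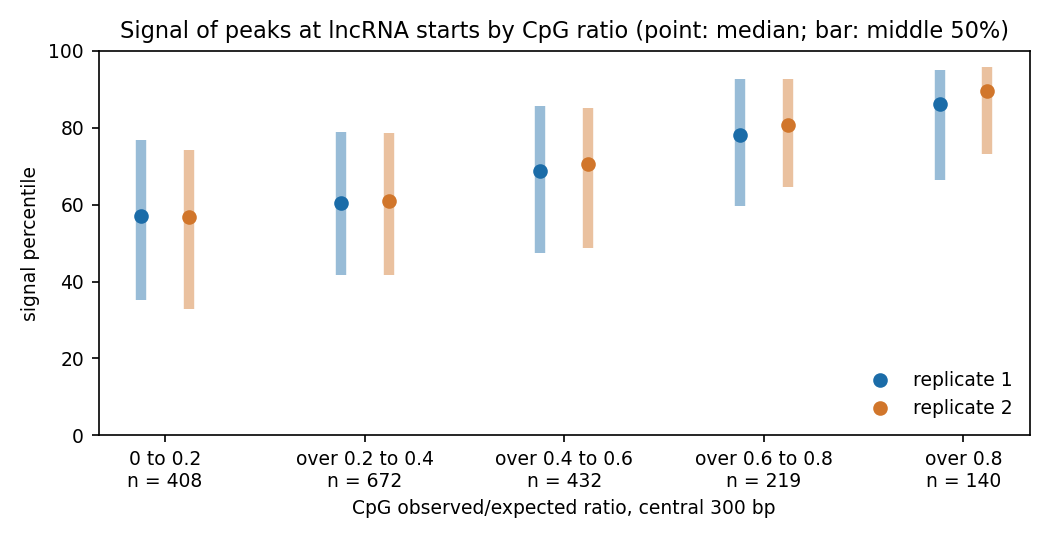
Median signal percentile (points) and middle 50% (bars) of the 1871 peaks at lncRNA starts in 5 bins of the observed/expected CpG ratio, for each replicate. The medians rise in every step, from 56.9 to 86.2 in replicate 1 and from 56.9 to 89.5 in replicate 2, and neighbouring bars overlap.

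Short binding words were counted on both strands of the central 150 bp, and a word's presence is a description and not a bound site. Of 6 words of general promoter factors, the share in members lay between that of distal peaks and that of protein-coding promoter peaks for 5, with intervals apart from both classes for 3 (the GC, ETS and NRF1 words). The GC box GGGCGG, read by SP and KLF factors, was present in 15.7% of members (interval 14.1 to 17.4), against 41.9% of protein-coding promoter peaks and 6.10% of distal peaks. CCGGAAG, an ETS word, gave 3.26%, 7.97% and 1.17%. For GCGCATGCG, the NRF1 word, the shares were 0.428%, 1.63% and 0.132%. TGACGTCA stood nearer to the protein-coding promoters, with overlapping intervals, in 24 members (1.28%, interval 0.863 to 1.90) against 1.84% and 0.283%. CCAAT, the NFY box, was about equally frequent in all 3 classes, at 19.99%, 21.6% and 19.5%. AAGATGGCG, the YY1 word, was in 2 members (0.107%, interval 0.0293 to 0.389), 0.954% and 0.185%, and so at the level of distal peaks. Over all shared peaks the GC box was in 15.3%, the ETS word in 2.86%, the NRF1 word in 0.493% and CCAAT in 19.8%. The members' intervals hold each of these, so for these words members were at the background. TGACGTCA was in 0.678% of all shared peaks, below the members' interval, and the YY1 word in 0.366%. These words differ in GC and CpG content, as do the classes, and the part of base composition in the shares was not tested.

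Most words of developmental and tissue factors were closer to their level in distal peaks. The E-box CAGCTG, a word of bHLH factors such as those of muscle, was in 16.8% of members (interval 15.2 to 18.6), 9.97% of protein-coding promoter peaks and 17.1% of distal peaks. CATCTG, the E-box read by TWIST and other bHLH factors, gave 16.2%, 7.01% and 21.0%. TAATTA, read by many homeodomain proteins, was in 4.17% (3.35 to 5.17), 1.08% and 5.80%, and CAATAAA, read by the posterior HOX13 proteins, in 2.83%, 1.04% and 4.27%. CTGTCA, the MEIS word, gave 10.3%, 7.85% and 12.1%, and GGAATGT, the TEAD word, 3.63%, 1.51% and 3.75%. TGAGTCA, the AP-1 word, was in 3.79% of members (3.02 to 4.76), 1.63% and 2.97%. The TATA box TATAAA was in 5.45% (4.51 to 6.57), 2.55% and 8.54%, so that it was not a mark of members against distal peaks. Members also lay between the classes for TAATCC, the PITX word (3.69%, against 2.23% and 4.80%), AACCACA, the RUNX word (2.78%, 1.65% and 3.99%), and AGATAA, the GATA word (3.15%, 1.90% and 4.03%). GACCACCC, the word of the Hedgehog mediators GLI, was in 12 members (0.641%, interval 0.367 to 1.12), 0.436% and 0.507%. Over all shared peaks CAGCTG was in 15.1%, CATCTG in 17.1%, TAATTA in 4.42%, CAATAAA in 3.30%, CTGTCA in 10.9% and GGAATGT in 3.12%. TAATCC was in 4.10%, AACCACA in 3.40%, AGATAA in 3.43% and GACCACCC in 0.498% of them. Of these words, only for CAGCTG was the background outside the members' interval, just below it. The background was 2.64% for TGAGTCA, below the members' interval, and 6.76% for TATAAA, above it. HOX13 and CCAAT words can share bases, as can MEIS and E-box words.

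The CTCF consensus was found in 62 members (3.31%, interval 2.59 to 4.23), 1.76% of protein-coding promoter peaks and 4.15% of distal peaks. Over all shared peaks it was in 3.59%, within the members' interval. The 4 highest ranking were at 0610025J13Rik, with signals of 126 and 112, 1700127F24Rik with 110 and 104, AC113104.3 with 115 and 98, and AC116857.1 with 107 and 105. The first, shown above, is centred 973 bp from its start, the second covers its start. The RFX consensus was found in 0 of 1871 members, which allows a share of up to 0.205%, and in 0.103% of distal peaks. Within the members, the GC box was in 46.2% of island-type and 7.41% of CpG-poor windows. The GC box itself holds a CpG and these groups were made by CpG content, so this gap follows in part from the grouping. CAGCTG was in 9.97% of island-type and 19.6% of CpG-poor windows. TGAGTCA was much alike in them, at 4.32% and 3.80%.

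**Figure D4:**
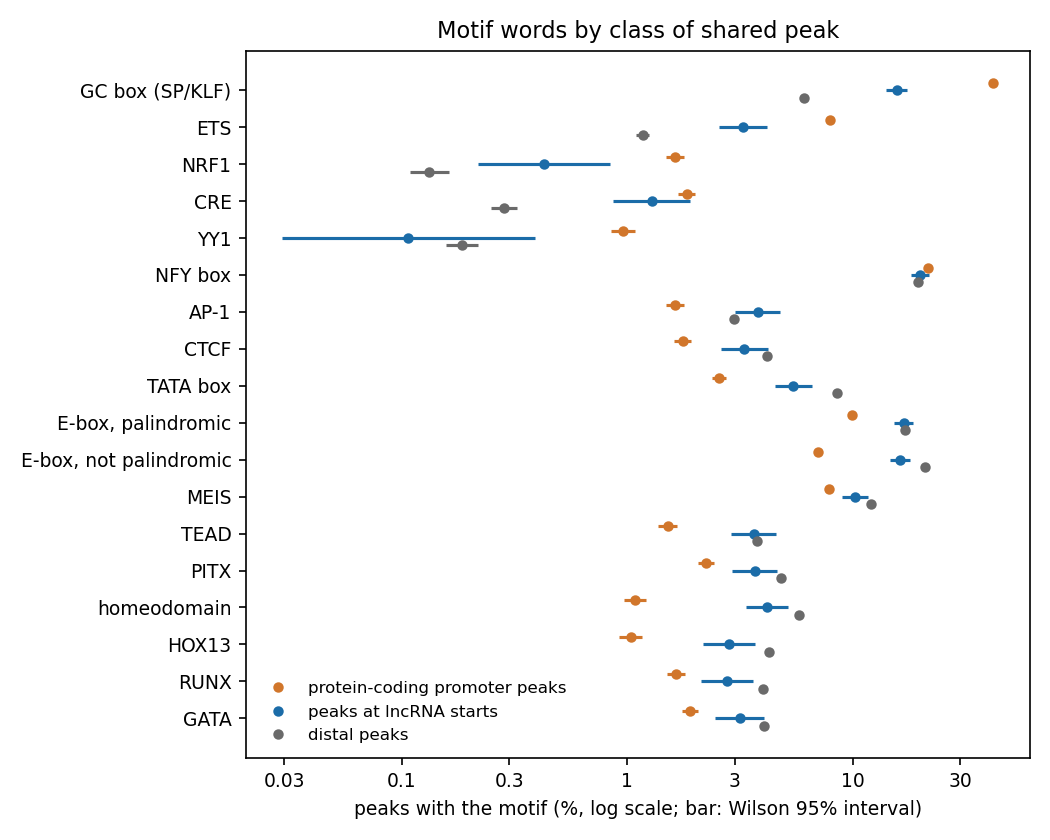
Share of peaks with each of 18 words (points, log scale, with Wilson 95% intervals as bars) in protein-coding promoter peaks, peaks at lncRNA starts and distal peaks. The GC box separates the classes at 41.9%, 15.7% and 6.10%, while the NFY box (CCAAT) lies between 19.5% and 21.6%. All shared peaks, not drawn, gave 15.3% for the GC box. The palindromic E-box is CAGCTG and the other CATCTG.

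The 12 genes ranked highest by mean percentile had signals of 125 to 136 in every library, and 11 had a CpG ratio over 0.6 in the window. At 6720427I07Rik (chr13:48546616-48546785), whose 15 CpGs are shown above, the signals were 131 in replicate 1 and 135 in replicate 2, with the centre 201 bp upstream of the start. At 1700113A16Rik they were 136 and 131, and at Gm33195, whose peak covers the start, 134 and 131. The remaining 9 were at AC132957.1, 1810019N24Rik, Gm15287, 1700096K18Rik, Gm10010, D730045B01Rik, Gm26901, Gm2885 and 5430416N02Rik. In each of the 12 the hotspot stood at the ceiling in both libraries, as for 49.0% of members and 48.6% of all shared peaks. In 9 the window holds the GC box, against 15.7% of members and 15.3% of all shared peaks. Of all members 11.7% had a CpG ratio over 0.6 to 0.8 and 7.48% one over 0.8. The 12 were picked by their signal, so a hotspot at the ceiling is no separate result.

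For the lists of noncoding genes that follow, the shares over all 6219 are the background. They are 21.9% with a shared peak, and 26.3% and 25.7% with a peak in replicate 1 and replicate 2. Among the genes with other symbols, as grouped above, 31.5% had a shared peak. Hosts of small RNAs carry microRNAs, which are cut from the transcript, or small nucleolar RNAs, which are released from introns and guide the modification of ribosomal RNA. Of 16 in the list with a qualifying start, 10 had a shared peak (62.5%, interval 38.6 to 81.5, against 21.9% over all noncoding genes), 11 had a peak in replicate 1 and 13 in replicate 2. Among the snoRNA hosts Snhg6 had signals of 119 and 117, Snhg20 122 and 107, and Snhg12 116 and 104, and each of these peaks covers its start. Mir670hg, a microRNA host, had 117 and 105. Mir17hg, the precursor of a microRNA cluster that promotes proliferation, had 96 and 92 and was named after its values were seen.

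Dnm3os had more members than any other gene. It is the precursor of the microRNAs miR-199a and miR-214, is transcribed against the Dnm3 gene, and is known to be needed for normal skeletal growth. Its 7 members lay between 702 bp upstream and 2878 bp downstream of its first start. The peak at the first start, whose sequence is given above, had signals of 129 in replicate 1 and 121 in replicate 2. Upstream of it stood a peak of 112 and 106, and the 5 downstream had 55 to 86 in replicate 1 and 35 to 74 in replicate 2. The CpG ratio was 0.347 at the first start and 0.116 to 0.291 in the others, so the whole set was poor in CpG while the first peak ranked 16 of all members. Hotspots of up to 3217 bp in replicate 1 and 1817 bp in replicate 2 joined several of these peaks.

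The genes listed as abundant nuclear RNAs had a peak with 1 exception. Of 11 such genes with a qualifying start, 10 had a shared peak (90.9%, interval 62.3 to 98.4, against 21.9%) and Gm26917 had no peak in either library. Meg3, Miat and Rmst also stand in the neural list and RNA abundance was not measured, so this list is not a clean one. Malat1, an RNA of nuclear speckles, had 6 members. Those at its main start had signals of 123 and 122 (989 bp upstream) and 120 and 114 (over the start), and the 4 at internal starts 4821 to 6411 bp downstream had 31 to 34 in replicate 1 and 24 to 31 in replicate 2. Internal starts were thus far weaker than the main one in each library. Lockd, a transcript beside the cell cycle inhibitor gene Cdkn1b, had 122 and 113, and Trp53cor1, known as lincRNA-p21, had 67 and 59. Pvt1, which lies beside Myc, had 5 members along its length, led by 54 and 70 at its first start. The other Pvt1 members had 30 to 50 in replicate 1 and 28 to 41 in replicate 2, so that the first start was the highest in each library.

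At 4932412D23Rik, near Zbtb20 and with no role that is firmly known, 4 of 5 members had signals of 97 to 125 and formed a block from 479 bp upstream to 591 bp downstream of the first start. The fifth, 999 bp upstream and so just inside the window, had 53 and 42. Gm33460, near Eomes, also had 5 members, and its strongest, with 94 and 85, lay 732 bp upstream of its single start, while the peak over the start had 58 and 60 and the other 3 had 41 to 72. Other members at the edge of the 1 kb window were Bloodlinc at 999 bp, with 51 and 53, and AU020206 at 998 bp, with 55 and 43. Just outside the 1 kb window, at 1002 bp, stood Gm10732 with 40 and 27, AC124502.4 with 105 and 98, and Gm17619 with 58 and 60.

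**Figure D5:**
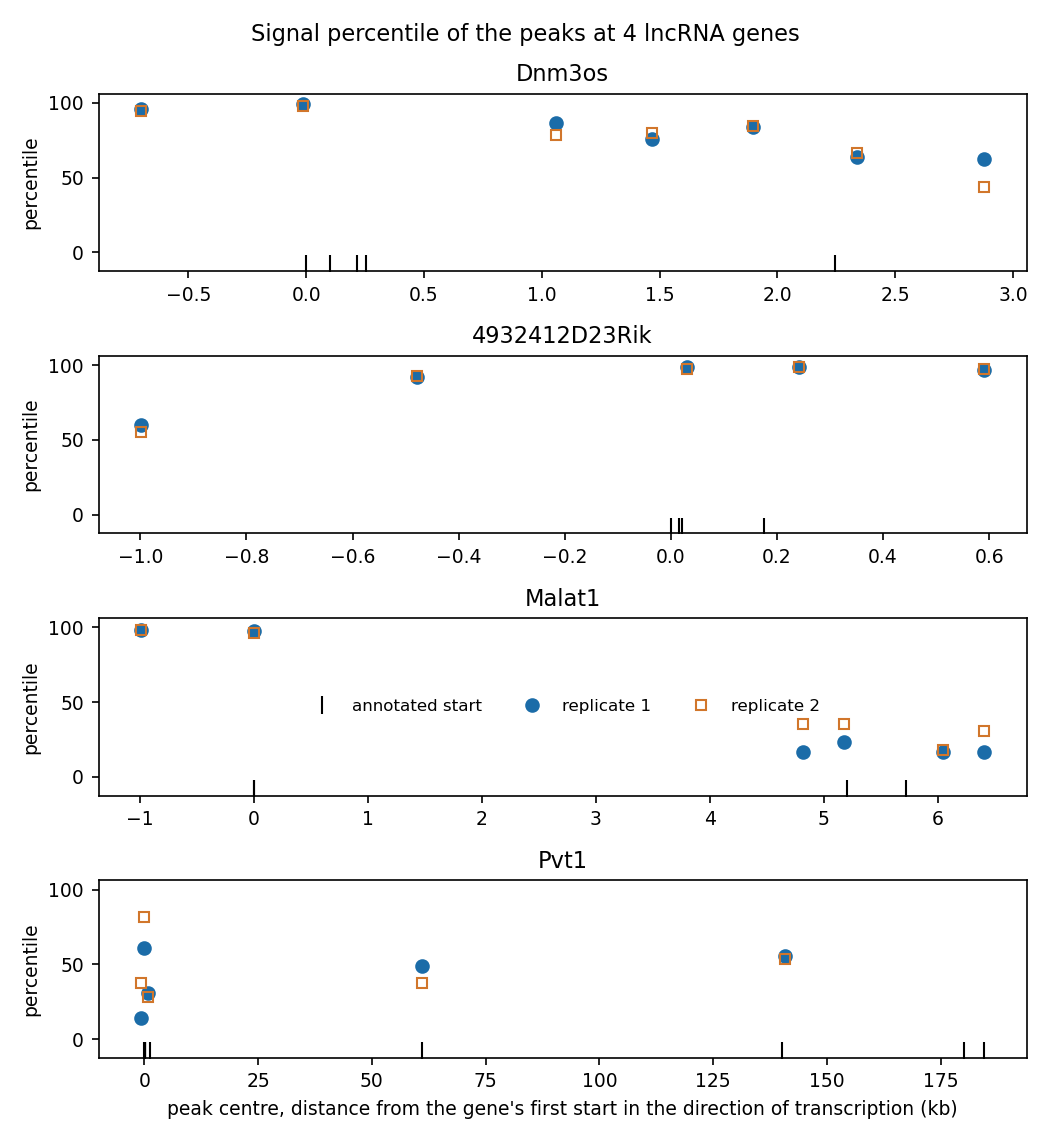
Signal percentile of each member in replicate 1 (filled circles) and replicate 2 (open squares) against its distance from the gene's first start in the direction of transcription, in kb, for 4 of the 5 genes with most members (Gm33460 is not drawn), with annotated starts as ticks. The peaks at the first starts of Dnm3os, 4932412D23Rik and Malat1 lie between 96.3 and 99.4, while the internal starts of Malat1 lie between 16.4 and 35.1.

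Imprinted noncoding genes had a shared peak in 4 of 8 cases (interval 21.5% to 78.5%, which reaches down to the 21.9% over all noncoding genes), the same count as in each library alone. Kcnq1ot1, whose RNA silences neighbouring genes on the paternal chromosome, had signals of 110 and 105 in a peak covering its start. Airn, which is transcribed against Igf2r and represses it, had 98 and 85, also over the start. Meg3, expressed from the maternal chromosome and shown above with its cyclic AMP response element, had 92 and 87. H19, an abundant RNA of embryonic mesoderm, had 85 and 82. These peaks do not tell the parental alleles apart.

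Of 28 symbols listed for the Hox clusters, 13 were annotated as lincRNA or antisense genes and 4 had a qualifying start, of which 2 had a shared peak. Gm53, 9726 bp from a Hoxb9 start, had signals of 87 in each library, and Gm13652, on chromosome 2 beyond Mtx2 in the region flanking the Hoxd cluster, had 97 and 87. Hotair, a HoxC transcript known from posterior and distal tissue, had a peak in replicate 1 only, with a signal of 56 in a hotspot of −log10 q 1.90, and neither a peak nor a hotspot in replicate 2. Halr1 had no peak in either library.

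Noncoding genes known from muscle and heart gave 3 of 7 with a shared peak (interval 15.8% to 74.95%, which holds the 21.9% over all noncoding genes), with 3 in replicate 1 and 4 in replicate 2. Carmn, the host of miR-143 and miR-145 and a gene of smooth muscle, had 78 and 88. Bvht, a regulator of the heart lineage, had a peak in replicate 2 only, of 42. Of 5 blood genes 3 had a shared peak (interval 23.1% to 88.2%, against 21.9%), the highest of them at Lncenc1 with 65 and 68. That gene is better known from embryonic stem cells, so the list is not a clean one. Mir155hg, the precursor of a microRNA of immune cells, had 62 and 66.

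As a share of the list, the gap between the libraries was widest at neural genes. A shared peak was found at 4 of 9 genes (interval 18.9% to 73.3%, which holds the 21.9% over all noncoding genes), a peak in replicate 1 at 5 and in replicate 2 at all 9. Over all noncoding genes 3.84% had a peak in replicate 1 only and 3.33% in replicate 2 only. The shared ones besides Meg3 were Mir9-3hg with 69 and 74, Rmst with 58 and 56 and Miat with 59 and 46. Dlx1as, Dlx6os1, Mir124a-1hg and Pantr1 had peaks in replicate 2 only, the strongest of them 42, 34, 40 and 24, and no hotspot of replicate 1 lay there. C130071C03Rik, a host of miR-9, had 2 peaks in replicate 1 and 11 in replicate 2, none of them overlapping, with signals of up to 39 and 63. Of 28 neural protein-coding genes, 25 had a promoter peak in replicate 1, 26 in replicate 2, and 23 a shared one. With nearly all of them open in each library, these promoters left little room for a gap. The neural list was picked out as the widest after the values of all lists had been seen. The part of tissue composition or depth in the difference at the noncoding genes was not tested. Dlx genes are also known from the limb ectoderm.

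Antisense-named genes, whose symbols carry an opposite-strand suffix, had a shared peak in 36 of 143 cases (25.2%, interval 18.8 to 32.9), near the share over all noncoding genes. Tvp23bos had 131 and 118, Nr6a1os 124 and 113, Snhg7os 114 and 111, and Rab10os 110 and 108. The first and second are CpG poor, with ratios of 0.277 and 0.266. Another strong member poor in CpG was at E130018N17Rik, with 121 and 126 and a ratio of 0.190.

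Some members lay beside regulators of limb development. For 73 of 1871 members (3.90%, interval 3.11 to 4.88) the nearest protein-coding start belonged to 1 of 116 transcription factor and signalling genes of the limb, against 2.78% of distal peaks (2.66 to 2.90). They involved 55 noncoding and 35 protein-coding genes, and several members often share a gene. Their median percentile was 63.5 in replicate 1 and 58.3 in replicate 2, below that of all members. Of the 73, 7 were in the top 10% of both libraries, against 11.9% of all members and 12% of all shared peaks. The median distance from these members to the nearest protein-coding start was 72179 bp. For cartilage and bone genes the shares were 0.374% of members and 0.683% of distal peaks, for neural genes 0.107% and 0.406%, for blood genes 0.321% and 0.178%, and for endothelial genes 0.374% and 0.309%. Of these 5 lists the intervals of members and distal peaks are apart for the limb list only. The shares of these lists over all shared peaks were not counted.

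Irx3, a homeobox gene of the early limb, had the most, with 6 members at 5 noncoding genes, followed by the receptor gene Fgfr1 with 5, and by Bmp4, a signal of the ectodermal ridge and mesenchyme, and the nuclear receptor gene Nr2f2 with 4 each. Gm47061, inside the ectodermal factor gene Tfap2a and 6043 bp from its nearest start, had signals of 122 and 117. At 1810044D09Rik, 29568 bp from Wnt7a, the dorsal signal of the limb ectoderm, they were also 122 and 117. Gm15651, inside Dgkg and 108542 bp from the nearest start, that of Etv5, a target of FGF signalling, had 107 and 101. At Gm20052, whose nearest protein-coding gene is Msx1, a homeobox gene of undifferentiated mesenchyme, a peak of 103 and 89 covers the start. Another of 102 and 102 lies 904 bp downstream. These peaks lie 69288 and 71028 bp from Msx1. Gm44946, 13500 bp from Nr2f2, had 97 and 100, and Gm30709, 53783 bp from Ptch1, the Hedgehog receptor gene, had 94 and 90. C79798, inside Pbx3, the gene of a Hox cofactor, and 82439 bp from its nearest start, had 91 and 90. Nearest gene is a measure of position and does not say which gene a site acts on.

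As a check of the labelled tissue, 106 of the 116 limb genes had a shared promoter peak, with 108 in replicate 1 and 114 in replicate 2. Promoters of genes of other cell types were open as well, at 26 of 29 cartilage and bone genes, 23 of 28 neural genes, 13 of 22 blood genes and 13 of 21 endothelial genes. The background for all protein-coding genes was 68.1%. The part of these cells in the members' signal was not tested.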

How the data were processed

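DNase-seq libraries of 2 biological replicates were analysed from lists that the authors made. Per the labels, reads were placed on mm10, and the deposited descriptions give regions called per library, so no pooling of libraries took place before calling. Which aligner and caller were used is not given in the sources used here. Of the libraries only replicate 2 has instruments named in its labels, 2 models. In the deposited peak lists each interval spans 150 bp and carries the authors' signal, a whole number whose scaling is not stated (2 to 149 in shared peaks on chromosomes 1 to 19). Here it served as a rank within 1 library. In the deposited hotspot lists stands the authors' −log10 q, with a ceiling at 100. Neither holds read counts, so depth is unknown.

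Peaks on chromosomes 1 to 19 numbered 170134 and 163248. Overlapping peaks were merged, and a merged peak took the highest signal of its peaks in each library. Starts came from GENCODE M21, with starts of protein-coding transcripts as protein-coding starts. Bases came from GRCm38.p6 of NCBI RefSeq, which held 200 of 200 RefSeq promoter windows of chromosome 19 at their stated coordinates. CpG ratios used the central 300 bp and words the central 150 bp. Symbols for CTCF, NFI and RFX stand for degenerate consensus sequences.

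Members, gene lists, words and named genes were chosen with earlier results of these data known. Named were the 12 highest ranking genes, up to 5 genes of each noncoding list, the 5 genes with most members, the 3 largest differences in each direction, the 4 strongest members with a CTCF word, the 8 strongest beside limb genes, the 3 strongest poor in CpG, and those at the edge of the window. Alternatives changed the overlap, both distances, the signal threshold, the transcript set, the sequence windows and the use of hotspots, and left out each replicate. The merging of peaks, the search for the nearest start, the assignment to classes and the word search were tested on simulated data. Python 3.11.15, NumPy 2.4.6, pandas 2.3.3, SciPy 1.17.1 and Matplotlib 3.10.9 were used.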

Additional observations from a re-analysis of the deposited data

How the results depend on the processing

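The number of members stayed within 1.5 times of 1871 in 11 of 12 alternatives, at 1249 to 2735, and fell to 1170 once weaker peaks, those up to the median signal, were dropped. The share of noncoding genes with a shared peak (21.9%) was 16.9% with a 500 bp window and 29.2% with 2 kb, 15.03% above the median signal, 20.9% with an overlap of 75 bp, 22.4% over 2 kb from coding starts and 21.4% with basic transcripts. The median percentile (65.7) was 67.8 with an overlap of 75 bp, 68.3 within 500 bp, 64.6 within 2 kb, 67.3 over 2 kb from coding starts, 79.8 above the median signal, 66.2 with basic transcripts, 81.6 for hotspots, whose ceiling ties many ranks, and 66.7 without signals written with a decimal. The median CpG ratio (0.353) was 0.368 within 500 bp, 0.327 within 2 kb, 0.3997 above the median signal, 0.344 for hotspots and 0.369 in 150 bp. The CTCF share (3.31%) was 3.62% with an overlap of 75 bp, 3.04% within 500 bp, 3.18% within 2 kb, 3.38% over 2 kb from coding starts, 4.79% above the median signal, 3.03% for hotspots, 3.53% in 300 bp, 3.41% with starts of all transcripts of coding genes and 3.40% without decimals. The share differing by over 25 points (4.22%) was 0.256% above the median signal, 18.1% for hotspots and 29.6% at over 10 points.

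Leaving out each replicate in turn gave 2668 to 2701 members, a gene share of 25.7% to 26.3%, a median percentile of 53.9 to 54.0, a CpG ratio of 0.332 to 0.343 and a CTCF share of 2.36% to 2.41%, since peaks of 1 library then needed no partner. The percentile difference has no value with 1 library. Where a value moved for other reasons than fewer or more peaks, the cause was not tested. The use of all transcripts and the removal of decimals were chosen after seeing the data. No paired analysis was possible because there is 1 group. Depth is unknown, so a start without a peak may be open below what these libraries could show.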
